A study of Mus musculus with 4 samples.

Results

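The genes *Pcp2*, *Pcp4*, *Calb1*, *Ppp1r17*, *Slc1a6*, *Rgs8* and *Gng13*, which mark Purkinje cells in the cerebellum, were followed in RNA-seq libraries of granule-cell-enriched (GCE) tissue. These 7 genes were found by their NCBI gene number among the 24532 gene numbers of each library, and all 7 passed the minimum of a mean TPM of 1. TPM is the number of transcripts of a gene per 1000000 transcripts, corrected for transcript length. Each library came from 1 mouse, and there were 2 wild-type (WT) and 2 *Kdm3b*+/- mice. Per the study's methods, the mice were adult males and the WT mice were littermates. The *Kdm3b*+/- mice carry 1 allele with the gene-trap vector pGT0lxf between exons 12 and 13 of *Kdm3b*, which encodes a histone H3K9 demethylase. They derive from a single gene-trapped line of embryonic stem cells, were backcrossed to C57BL/6N and then crossed to C57BL/6J, and the trap is not limited to 1 cell type. The labels name the tissue as cerebellum, and the methods name it as GCE tissue, cut by hand from slices of the vermis and separated from the Purkinje-cell-enriched (PCE) part. Purkinje RNA in these libraries is therefore RNA that remained after this dissection. The comparison asks how much Purkinje RNA each library held and whether its level differed between the genotypes.

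Purkinje cells are the large inhibitory neurons whose axons form the output of the cerebellar cortex. Their bodies lie in a single layer at the outer border of the granule cell layer, and their dendrites fill the molecular layer, where parallel fibres of granule cells contact them. They depend on strong calcium signalling downstream of glutamate receptors, and many of their marker genes encode calcium buffers, regulators of G proteins or transporters of glutamate. Calbindin (*Calb1*) buffers calcium, and *Pcp4* encodes a small protein that binds calmodulin. *Pcp2*, also known as L7, encodes a modulator of inhibitory G proteins, *Gng13* a gamma subunit of G proteins, and *Rgs8* a protein that speeds the switching off of G protein signals. *Ppp1r17* encodes G-substrate, a phosphatase inhibitor that is phosphorylated by cGMP-dependent protein kinase. *Slc1a6* encodes EAAT4, the glutamate transporter of Purkinje cells.

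The sequences upstream of *Pcp2* and *Pcp4* are shown because they hold a match to a motif of a Purkinje transcription factor. RORα, encoded by *Rora*, is required for the maturation of Purkinje cells and binds the half-site AGGTCA, which was searched on both strands (the other strand reads TGACCT). RefSeq promoters of GRCm38.p6 were found for 5 of the 7 genes, and *Pcp2* and *Pcp4* held the half-site within 250 bases upstream of the start, beside 14.0% of 32851 RefSeq promoters. Those letters were not found in the same window of *Slc1a6*, *Rgs8* and *Gng13*. *Calb1* and *Ppp1r17* were not matched. The start nearest to that in the deposited tables was used. The sequences are printed 5′ to 3′ on the strand of the gene, at chr8:3625548-3625797 (reverse strand) for *Pcp2* and chr16:96467356-96467605 (forward strand) for *Pcp4*, with the half-site in capitals.
Pcp2: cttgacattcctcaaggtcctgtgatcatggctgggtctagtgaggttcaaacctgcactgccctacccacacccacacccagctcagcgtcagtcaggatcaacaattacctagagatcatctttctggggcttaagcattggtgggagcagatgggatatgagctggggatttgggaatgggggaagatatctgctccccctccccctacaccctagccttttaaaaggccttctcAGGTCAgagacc
Pcp4: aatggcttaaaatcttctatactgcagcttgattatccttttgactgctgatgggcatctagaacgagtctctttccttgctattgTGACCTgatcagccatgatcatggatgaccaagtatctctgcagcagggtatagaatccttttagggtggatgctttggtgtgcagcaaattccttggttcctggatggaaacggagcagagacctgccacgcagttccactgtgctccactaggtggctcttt
In *Pcp2* the half-site begins at position −12, and in *Pcp4* it lies on the opposite strand and begins at position −164, counted from the start. A match describes these letters only.

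The depth of the libraries, taken from coverage divided by FPKM, was 4.92 and 5.74 aligned gigabases in WT libraries and 5.69 and 6.69 in *Kdm3b*+/- libraries. *Kdm3b* (NCBI gene 277250) was examined as a check of the labels and reached 9.10 and 11.0 TPM in WT libraries and 8.30 and 7.90 TPM in *Kdm3b*+/- libraries (limma, log2 change −0.27, standard error (SE) 0.17, adjusted p = 0.424). The *Kdm3b*+/- mean was 0.81 of the WT mean. Both *Kdm3b*+/- mice lay below both WT mice, as in 32.0% of all tested genes, so these values alone do not establish the labels. The mean coverage of the 7 Purkinje genes lay between 96.8 and 937 reads per base in every library, so their values rest on many reads. Genes were tested with limma on log2(TPM + 1), and a gene was called where the adjusted p was below 0.05 and the change exceeded 1.2-fold. Of the 13652 tested genes, 0.461% were called in either direction and 0.344% were called as lower in *Kdm3b*+/- mice. The smallest p that an exact permutation test of 2 mice against 2 can give is 0.333. In bulk tissue, fewer Purkinje cells and less RNA per Purkinje cell cannot be told apart.

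One library stood apart in Purkinje RNA. The TPM of the 7 genes summed to 1505 in WT mouse 1, 649 in WT mouse 2, 851 in *Kdm3b*+/- mouse 1 and 695 in *Kdm3b*+/- mouse 2. WT mouse 1 was thus 2.32 times WT mouse 2, and both *Kdm3b*+/- mice lay between the WT mice. The group means were 1077 ± 605 in WT libraries and 773 ± 111 in *Kdm3b*+/- libraries (SD, n = 2 each), so the difference between genotypes was smaller than the spread within the WT group. WT mouse 1 had the highest TPM of the 4 libraries for 6 of the 7 genes, all but *Rgs8*, a position it held for 19.9% of all tested genes. In 5 of the 7 genes its TPM was at least 2 times that of WT mouse 2, against 1.6% of all tested genes. The median ratio of WT mouse 1 to WT mouse 2 was 2.45 over the 7 genes and 0.953 over all tested genes. The results below are therefore also given without WT mouse 1.

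**Figure D1:**
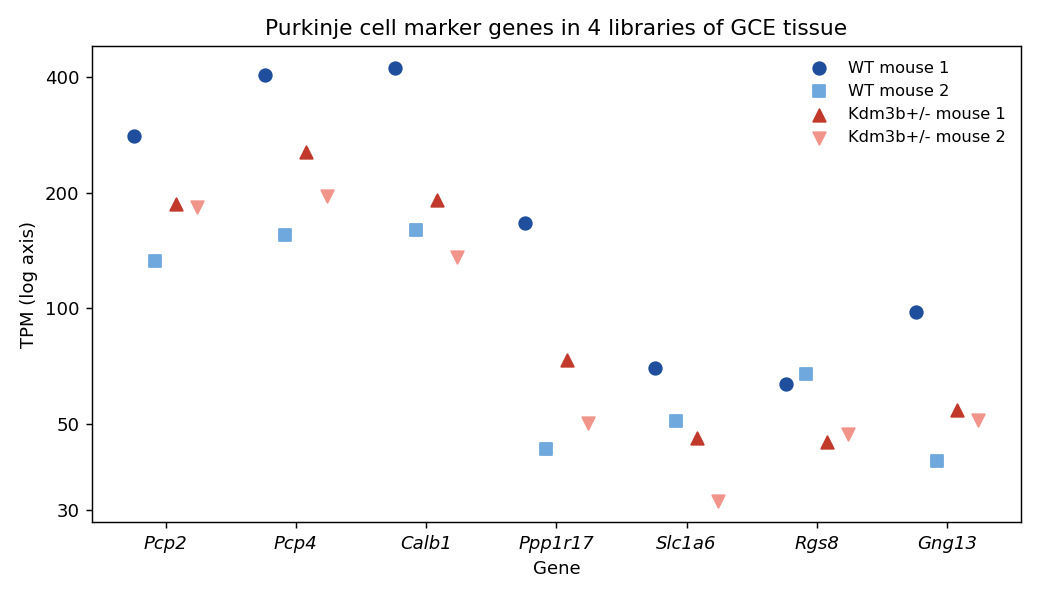
TPM of the 7 Purkinje cell marker genes (log axis) in each of the 4 libraries, 1 point per mouse: circles and squares are WT mice 1 and 2, and upward and downward triangles are *Kdm3b*+/- mice 1 and 2. WT mouse 1 is the highest point for every gene but *Rgs8*, and only in *Slc1a6* and *Rgs8* do both *Kdm3b*+/- mice lie below both WT mice.

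Of the 7 genes, 0 were called in the comparison of genotypes with limma, and 2 had an unadjusted p under 0.05, both lower in *Kdm3b*+/- mice, where 11.5% of all tested genes were lower at this level. All 7 had a lower mean of log2(TPM + 1) in *Kdm3b*+/- mice, as did 60.4% of all tested genes, although *Pcp2* turned to 0.0035 with FPKM and to 0.012 with median-ratio scaling. The median log2 fold change was −0.48 over the 7 genes and −0.07 over all tested genes. In 2 of the 7, *Slc1a6* and *Rgs8*, both *Kdm3b*+/- mice lay below both WT mice, a pattern shown by 32.0% of all tested genes. The 7 genes thus divided by how the *Kdm3b*+/- mice stood against WT mouse 2. In *Pcp2*, *Pcp4*, *Ppp1r17* and *Gng13* both *Kdm3b*+/- mice were above WT mouse 2 (30.7% of all tested genes). In *Slc1a6* and *Rgs8* both were below it (51.8% of all tested genes), and in *Calb1* they lay on either side of it.

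*Calb1* (NCBI gene 12307, chromosome 4, forward strand, 15881264 to 15906709) had 422 and 160.1 TPM in WT mice 1 and 2 and of 191 and 136 in *Kdm3b*+/- mice 1 and 2. WT mouse 1 stood alone, at 2.64 times WT mouse 2, and the other 3 mice were close to each other. The means were 291 ± 185 in WT libraries and 163 ± 39.3 in *Kdm3b*+/- libraries (SD, n = 2 each). The log2 fold change of *Calb1* was −0.69 (SE 0.37, 95% confidence interval −1.52 to 0.14, adjusted p = 0.368). Among all gene numbers sorted by TPM, *Calb1* was at rank 382 in WT mouse 1 and at rank 1319 in WT mouse 2. The calmodulin-binding gene *Pcp4* (NCBI gene 18546, chromosome 16, forward strand, 96467606 to 96525793) reached 403 and 155 TPM in WT libraries and 254 and 196 TPM in *Kdm3b*+/- libraries. Both *Kdm3b*+/- values of *Pcp4* fell between the WT values. Its log2 fold change was −0.16 (SE 0.36, interval −0.96 to 0.64, adjusted p = 0.844).

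Among the regulators of G proteins, *Pcp2* (NCBI gene 18545, chromosome 8, reverse strand, 3623371 to 3625545) reached 281 and 133 TPM in WT libraries and 187 and 183 TPM in *Kdm3b*+/- libraries. The *Kdm3b*+/- mice differed little from each other in *Pcp2* (185 ± 3.005, SD, n = 2), while the WT mice spread over the whole range (207 ± 104, SD, n = 2). The log2 fold change of *Pcp2* was −0.06 (SE 0.28, interval −0.69 to 0.57, adjusted p = 0.928). *Gng13* (NCBI gene 64337, chromosome 17, forward strand, 25717172 to 25719102) reached 97.9 and 40.0 TPM in WT libraries and 54.4 and 51.1 TPM in *Kdm3b*+/- libraries, again between the WT values. Its log2 fold change was −0.25 (SE 0.33, interval −0.98 to 0.49, adjusted p = 0.73). *Rgs8* (NCBI gene 67792, chromosome 1, forward strand, 153653037 to 153697665) followed another pattern, with 63.6 and 67.4 TPM in WT libraries and of 44.9 and 47.2 in *Kdm3b*+/- libraries. Here the WT mice agreed within the spread of the group (65.5 ± 2.71, SD, n = 2), and both *Kdm3b*+/- mice were lower (46.0 ± 1.67, SD, n = 2). The log2 fold change of *Rgs8* was −0.50 (SE 0.14, interval −0.81 to −0.19), and its adjusted p of 0.158 missed the threshold.

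*Ppp1r17* (NCBI gene 19051, chromosome 6, forward strand, 56017515 to 56032688) differed most between the WT mice. Its TPM was 167 and 43.0 in WT mice 1 and 2, a ratio of 3.88, and 73.4 and 50.3 in *Kdm3b*+/- libraries. The log2 fold change was −0.48 (SE 0.49, interval −1.58 to 0.63, adjusted p = 0.642). The glutamate transporter gene *Slc1a6* (NCBI gene 20513, chromosome 10, forward strand, 78780496 to 78814825) reached 70.2 and 50.8 TPM in WT libraries and 46.1 and 31.7 TPM in *Kdm3b*+/- libraries. The groups did not overlap in *Slc1a6*, with *Kdm3b*+/- mouse 1 just below WT mouse 2. Its log2 fold change was −0.63 (SE 0.21, interval −1.11 to −0.15, adjusted p = 0.212).

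By mean TPM over the 4 libraries, the order of levels was *Pcp4* (252), *Calb1* (227), *Pcp2* (196), *Ppp1r17* (83.4), *Gng13* (60.9), *Rgs8* (55.8) and *Slc1a6* (49.7). Neighbours in this order were closer to each other than the spread over the 4 mice, except for the step from *Pcp2* to *Ppp1r17*. In every library *Pcp2*, *Pcp4* and *Calb1* were each above each of the other 4 genes. The ratio of 1 gene to another within a library shows which genes kept step. *Gng13* was 0.349 and 0.301 of *Pcp2* in WT libraries and 0.291 and 0.279 in *Kdm3b*+/- libraries, a range of 1.25 times. *Pcp4* was 1.44 and 1.16 times *Pcp2* in WT libraries and 1.36 and 1.07 times *Pcp2* in *Kdm3b*+/- libraries. The ratio of *Calb1* to *Pcp2* was 1.51 and 1.21 in WT libraries against 1.02 and 0.741 in *Kdm3b*+/- libraries, so that *Calb1* was above *Pcp2* in 3 libraries and below it in *Kdm3b*+/- mouse 2. *Rgs8* kept step with *Pcp2* least, at 0.227 and 0.507 of it in WT libraries and at 0.240 and 0.258 in *Kdm3b*+/- libraries. This was a range of 2.24 times, and *Slc1a6* (2.21), *Ppp1r17* (2.17) and *Calb1* (2.03) had ranges nearly as wide.

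With WT mouse 1 left out, the fit repeats the comparison with WT mouse 2 alone that was given above. Leaving out WT mouse 1 turned the direction of 5 of the 7 genes, that of *Calb1* only slightly. Without it the log2 fold change was 0.48 in *Pcp2* (SE 0.13), 0.53 in *Pcp4* (SE 0.18), 0.01 in *Calb1* (SE 0.21), 0.49 in *Ppp1r17* (SE 0.23) and 0.39 in *Gng13* (SE 0.14). *Slc1a6* and *Rgs8* stayed lower in *Kdm3b*+/- mice, with −0.40 (SE 0.23) and −0.54 (SE 0.14). Leaving out WT mouse 2 instead gave lower values in *Kdm3b*+/- mice for all 7 genes, from −1.44 in *Ppp1r17* to −0.46 in *Rgs8*, with both *Kdm3b*+/- mice below WT mouse 1 in each. In neither case was any of the 7 genes called. With a single WT library left, its spread is taken to be that of the *Kdm3b*+/- mice. The ratio of the summed TPM of *Kdm3b*+/- to WT mice was −0.48 on the log2 scale with all libraries, 0.25 without WT mouse 1 and −0.96 without WT mouse 2.

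**Figure D2:**
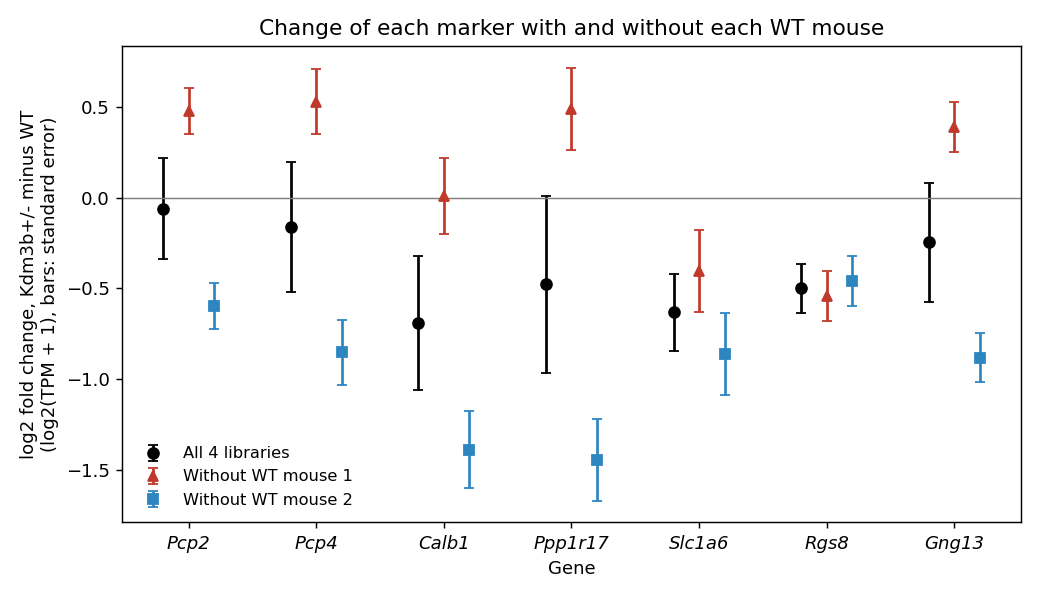
Log2 fold change (*Kdm3b*+/- minus WT, on log2(TPM + 1)) of each of the 7 genes with all 4 libraries (black circles), without WT mouse 1 (red triangles) and without WT mouse 2 (blue squares), with bars for the SE. Without WT mouse 1 the values of *Pcp2*, *Pcp4*, *Ppp1r17* and *Gng13* lie above 0 and that of *Calb1* is near 0, while *Slc1a6* and *Rgs8* lie below 0 in all 3 fits.

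A further 24 genes with known expression in Purkinje cells were examined, of which 20 passed the TPM minimum. *Grid2ip*, *Foxp2*, *Skor2* and *Ebf2* did not. With limma 0 of the 20 were called, 9 had an unadjusted p under 0.05, all of them lower in *Kdm3b*+/- mice, and 18 had a lower mean of log2(TPM + 1). Over all tested genes 0.461% were called, 11.5% were lower at this p and 60.4% were lower in this mean. In 15 of the 20 both *Kdm3b*+/- mice lay below both WT mice (32.0% of all tested genes), and in 0 of them above. Their median log2 fold change was −0.48. Both *Kdm3b*+/- mice were below WT mouse 2 in 15 of the 20 and above it in 3, beside 51.8% and 30.7% of all tested genes. WT mouse 1 had the highest value in 16 of the 20 and at least 2 times the value of WT mouse 2 in 3, which were *Car8*, *Pvalb* and *Arhgef33*. The summed TPM of the 24 genes, most of it from *Aldoc*, was 4398 and 3282 in WT libraries and 2936 and 2582 in *Kdm3b*+/- libraries.

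Among the larger decreases in mean was that of *Homer3*, which encodes a scaffold of metabotropic glutamate receptors. *Homer3* had 35.1 and 19.1 in WT libraries and 12.8 and 10.8 in *Kdm3b*+/- libraries (log2 change −1.08, SE 0.25, adjusted p = 0.125). Both *Kdm3b*+/- mice were below either WT mouse. The calcium pump gene *Atp2a3*, chosen after its values were seen, had the lowest adjusted p of the 20, at 21.5 and 17.5 TPM in WT libraries and 9.95 and 8.76 TPM in *Kdm3b*+/- libraries (log2 change −0.98, SE 0.17, adjusted p = 0.0523). *Inpp5a*, which encodes a phosphatase of inositol trisphosphate, had 176 and 149 in WT libraries and 113 and 108 in *Kdm3b*+/- libraries (log2 change −0.55, adjusted p = 0.141). *Dner*, which encodes a Notch ligand of Purkinje dendrites, had 113 and 91.4 against 64.6 and 61.2 (log2 change −0.69, adjusted p = 0.107). In these 4 genes the difference of the means exceeded the SD of either group, and none reached the adjusted threshold.

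*Pvalb* and *Car8* had the pattern of *Ppp1r17* and *Pcp2*, with both *Kdm3b*+/- mice between the WT mice. *Pvalb* encodes the calcium buffer parvalbumin, which molecular layer interneurons also express, and reached 290.3 and 80.2 TPM in WT libraries and 161 and 145 TPM in *Kdm3b*+/- libraries (log2 change 0.00, adjusted p = 0.999). Without WT mouse 1 the log2 fold change of *Pvalb* was 0.92. *Car8*, which encodes a partner of the inositol trisphosphate receptor, had 126 and 45.1 against 60.2 and 46.0 (log2 change −0.51, adjusted p = 0.507), and its direction turned without WT mouse 1 to 0.22. *Pcp4l1*, a relative of *Pcp4*, reached 122 and 80.1 TPM in WT libraries and 114 and 118 TPM in *Kdm3b*+/- libraries (limma, log2 change 0.23, adjusted p = 0.556, and −0.07 without WT mouse 2). With *Pvalb* it was among the 2 genes of the 20 with no lower mean of log2(TPM + 1). The mean TPM of *Pvalb* was lower in *Kdm3b*+/- libraries (153) than in WT libraries (185).

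Purkinje cells fall into stripes that express zebrin II, the product of *Aldoc*, and stripes that do not. *Aldoc*, which astrocytes and Bergmann glia also express, reached 3146 and 2468 TPM in WT libraries and 2134 and 1824 TPM in *Kdm3b*+/- libraries (log2 change −0.50, SE 0.14, adjusted p = 0.172). *Slc1a6* and *Plcb3* are known from the zebrin-positive stripes, and *Plcb3*, named here beside them after its values were seen, had 7.95 and 8.51 against 4.81 and 7.23 (log2 change −0.42). *Plcb4* is known from the zebrin-negative stripes and had 67.4 and 74.5 against 64.2 and 58.7 (log2 change −0.20, adjusted p = 0.476). In *Aldoc*, *Slc1a6*, *Plcb3* and *Plcb4* both *Kdm3b*+/- mice lay below both WT mice, as in 32.0% of all tested genes. The sizes of these decreases were not tested against each other. *Ebf2*, also known from the zebrin-negative stripes, missed the TPM minimum. Its groups overlapped, with 0.794 and 0.421 against 0.788 and 0.574. *Rora*, whose product binds the half-site shown above, had 68.8 and 68.0 in WT libraries and 61.2 and 62.5 in *Kdm3b*+/- libraries (log2 change −0.14, adjusted p = 0.603). Molecular layer interneurons express *Rora* as well.

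**Figure D3:**
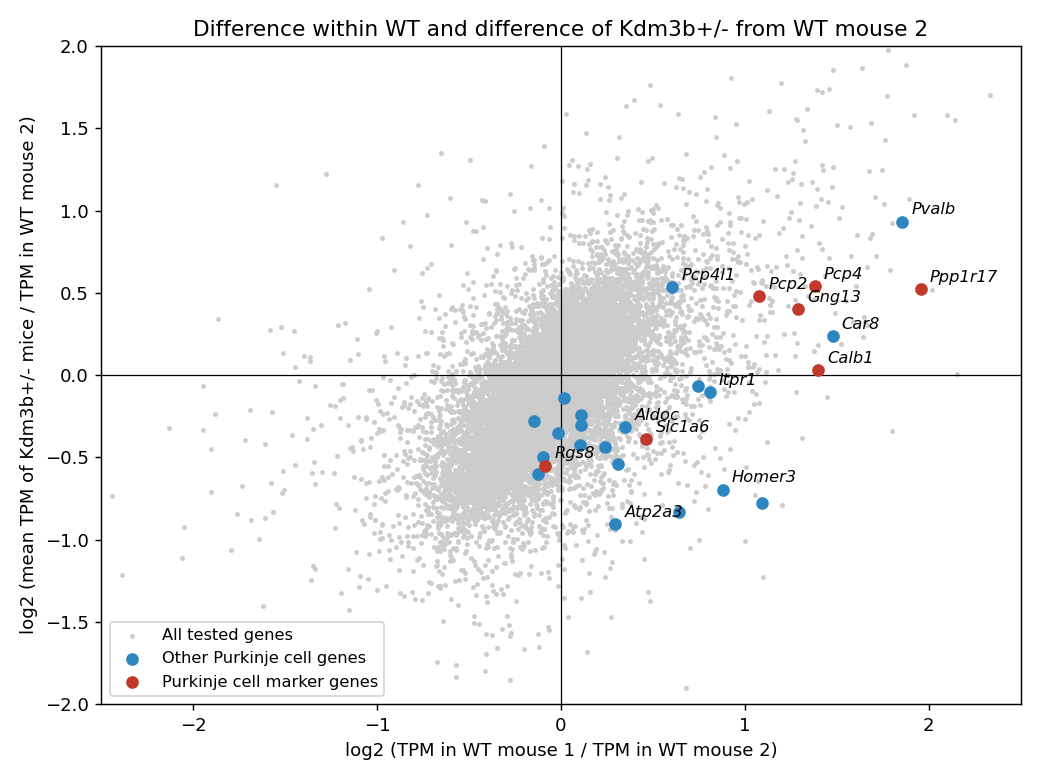
For each gene, the log2 ratio of TPM in WT mouse 1 to WT mouse 2 (horizontal axis) and the log2 ratio of the mean TPM of the *Kdm3b*+/- mice to WT mouse 2 (vertical axis): red points are the 7 Purkinje marker genes, blue points the 20 other Purkinje genes, and grey points all tested genes with values above 0 in every library and within the axes. The 5 marker genes on the right were at least 2 times higher in WT mouse 1 than in WT mouse 2, while *Slc1a6* and *Rgs8* lie among the other Purkinje genes below 0 on the vertical axis.

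These groups of genes also differ in transcript length, as given by the GENCODE transcripts of GRCm38. *Pcp4*, *Gng13*, *Pcp2*, *Ppp1r17* and *Slc1a6* have 641, 719, 1606, 1757 and 2029 bases, *Calb1* has 4222 and *Rgs8* has 8474. With a limit of 2500 bases, set after the values were seen, 7 of the 27 tested Purkinje genes were short and 20 were long. Both *Kdm3b*+/- mice were above WT mouse 2 in 6 of the 7 short genes and in 1 of the 20 long genes. Over all tested genes this was found for 51.8% of the short genes and 19.7% of the long genes. Both were below WT mouse 2 in 16 of the 20 long Purkinje genes, beside 64.0% of all long genes. The median log2 fold change was −0.16 in the short and −0.50 in the long Purkinje genes, beside 0.06 and −0.13 over all short and all long genes. Length therefore moved with the direction in all genes and not in Purkinje genes alone. Its part in the division of the 7 genes was not tested.

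After a loess correction of every library for the length and GC content of transcripts, all 7 genes still had a lower mean in *Kdm3b*+/- mice, from −0.66 to −0.10 on the log2 scale. WT mouse 1 was then above WT mouse 2 for all 7, *Rgs8* included, which had been lower in WT mouse 1 before the correction. The log2 difference was 1.78 in *Ppp1r17*, 1.39 in *Calb1*, 1.18 in *Gng13*, 1.12 in *Pcp4*, 0.97 in *Pcp2*, 0.51 in *Slc1a6* and 0.13 in *Rgs8*. *Rgs8* was then the only gene of the 7 whose groups did not overlap, since *Kdm3b*+/- mouse 1 rose just above WT mouse 2 in *Slc1a6*. With WT mouse 1 also left out, a combination chosen after seeing the data, the log2 fold changes were 0.39 in *Pcp2*, 0.36 in *Ppp1r17*, 0.16 in *Pcp4*, 0.14 in *Gng13* and 0.03 in *Calb1*, against −0.30 in *Slc1a6* and −0.35 in *Rgs8*. The direction of each of the 7 genes was thus the same as without the correction, with smaller values in all but *Calb1*. Among them *Pcp4* went from 0.53 to 0.16 and *Gng13* from 0.39 to 0.14. The part of length and GC content in the division was not tested.

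Markers of other cells were set beside these values to see what else differed between the libraries. The 12 granule cell genes summed to 4513 and 5295 TPM in WT libraries and of 4623 and 4773 in *Kdm3b*+/- libraries, and WT mouse 1 was highest in 0 of the 12. Among them *Gabra6*, a GABA-A receptor subunit of granule cells, had 984 and 1097 against 1200 and 1032, and *Cbln3*, a cerebellin, had 971 and 1229 against 769 and 851. All 12 passed the TPM minimum. The 7 Purkinje genes amounted to 33.3% and 12.3% of the granule cell sum in WT libraries and to 18.4% and 14.6% in *Kdm3b*+/- libraries. Scaling each library to the granule cell genes, chosen after seeing the data, left 0 of the 7 genes called, with log2 fold changes from −0.70 to −0.07.

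Of 12 interneuron markers 10 were tested, and WT mouse 1 was highest in 6 of them. Of the 10, 8 had a lower mean of log2(TPM + 1) in *Kdm3b*+/- mice, and in 6 both *Kdm3b*+/- mice lay below both WT mice. These counts were 7 and 5 of the 10 genes of astrocytes and Bergmann glia, and 5 and 1 of the 12 granule cell genes. Over all tested genes the shares were 60.4% and 32.0%. Both *Kdm3b*+/- mice lay above both WT mice in 1, 2 and 2 genes of the 3 lists. All 12 interneuron markers summed to 257 and 201 in WT libraries and 177 and 175 in *Kdm3b*+/- libraries. *Gad1*, the enzyme of GABA synthesis that Purkinje cells share, had 140 and 104 against 81.6 and 78.5, while *Grm2*, a receptor of Golgi cells, had 22.7 and 22.9 against 19.99 and 22.0. Of 6 markers of the deep nuclei and brainstem 3 were tested. As in *Pcp2*, WT mouse 1 was highest and WT mouse 2 lowest in all 3. All 6 markers summed to 242 and 96.3 in WT libraries and 142 and 177 in *Kdm3b*+/- libraries, most of it from *Spp1*. *Spp1*, found in large neurons, had 196 and 74.2 against 117 and 141, and the neurofilament gene *Nefh* had 34.5 and 17.8 against 18.9 and 26.8. *Nefh* is present in Purkinje axons as well. The 10 genes of astrocytes and Bergmann glia summed to 1379 and 1220 in WT libraries and 1132 and 1315 in *Kdm3b*+/- libraries, and WT mouse 1 was highest in 4. *S100b* had 412 and 322 against 275 and 412, and *Gjb6*, a gap junction gene, had 267 and 257 against 191 and 158. *Gdf10*, a gene of Bergmann glia, whose bodies lie beside those of Purkinje cells, had 51.7 and 25.7 against 19.4 and 15.6. *Hopx* of the same list went the other way, with 151 and 103 against 183 and 179. Both were chosen after their values were seen. With limma 0 genes of the granule cell, interneuron and deep nuclei lists were called. At an unadjusted limma p under 0.05, 1 granule cell gene was lower in *Kdm3b*+/- mice and 2 were higher. These counts were 3 and 1 for interneuron genes, 4 and 2 for astrocyte and Bergmann glia genes, and 0 and 0 for deep nuclei genes. Over the 13652 tested genes they were 1571 and 747. The part of these markers in the Purkinje values was not tested.

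**Figure D4:**
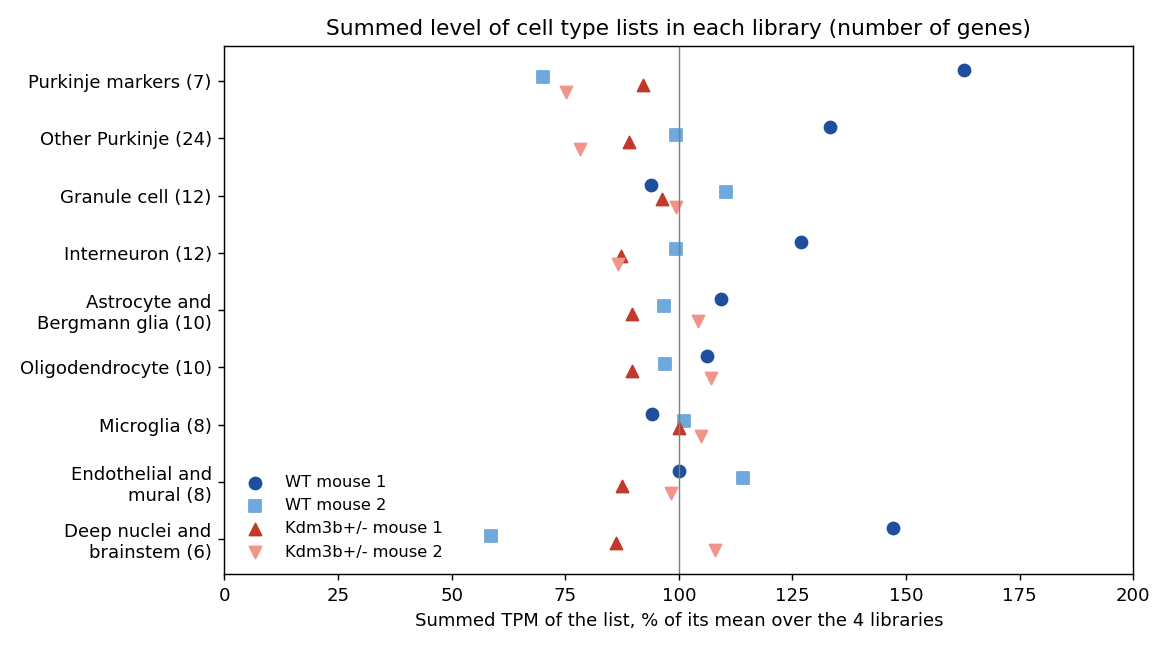
Summed TPM of 9 lists of cell type genes in each library, as a percentage of the mean of that list over the 4 libraries, with the number of genes of each list in brackets and the mice marked by shape. WT mouse 1 is far to the right for the 7 Purkinje markers and for the deep nuclei and brainstem list, whose sum is mostly *Spp1*, and on the left for granule cell genes.

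The genes outside all lists whose pattern over the 4 libraries was most like the mean of the 7 Purkinje genes were sought among the 8747 genes whose mean TPM reached 10. Likeness was the root mean square difference between the gene and that mean, each as log2(TPM + 1) less its own mean. *Itpka*, which encodes a kinase of inositol trisphosphate, was nearest (0.106), followed by *Cck*, a neuropeptide gene (0.128), *Wipi1* (0.132), *Eps8l2* (0.132) and *Gatd3a* (0.133). *Itpka* reached 33.9 and 15.7 TPM in WT libraries and 15.9 and 14.6 TPM in *Kdm3b*+/- libraries, so that WT mouse 1 alone stood out. Of the Purkinje genes themselves, *Itpr1*, the inositol trisphosphate receptor gene, was at rank 2 with a TPM of 36.4 and 20.8 against 21.3 and 17.5. *Gng13* was at rank 3, *Pcp4* at 16, *Pcp2* at 22, *Calb1* at 28, *Slc1a6* at 71, *Ppp1r17* at 270 and *Rgs8* at 2279, although each of the 7 is part of the mean it was compared with.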

How the data were processed

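Bulk RNA of GCE tissue from 2 WT and 2 *Kdm3b*+/- mice was used, grouped by the genotype in the labels. The authors trimmed low-quality bases, aligned reads with STAR and estimated abundance with StringTie; versions, genome build and annotation are not given in the sources used here. The deposited coverage gives the average number of reads over each exonic base. The authors scaled FPKM to gene length and mapped fragments, and the deposited TPM to gene length and a total of 1000000. TPM carries no depth, which was read from the coverage. Of the gene numbers, 99.6% lay on the chromosome given by RefSeq for GRCm38 and 90.5% started within 1 kb of it. Symbols were found for 24462 of 24532, and entries that shared a number (220 numbers) were summed.

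Genes whose mean TPM reached 1 were tested on log2(TPM + 1) with limma 3.58.1 (lmFit, then eBayes with trend) under R 4.3.3, with genotype as the only term and Benjamini-Hochberg adjustment over 13652 genes. This scale understates changes of genes with low TPM. The p-values rest on a spread shared across genes. The study's own test on estimated counts was not repeated, since TPM values are not counts. Robust fits used statmod version 1.5.0. Tables were built in Python 3.11.15 with pandas 2.3.3 and NumPy 2.4.6, and plots with Matplotlib 3.10.9. Length and GC content were found for 12904 tested genes (94.5%). The scripts were tested on simulated data.

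The 7 genes and all lists were chosen with earlier results of these data known. Named genes were the 7, *Kdm3b*, the other Purkinje genes that were called, had the 8 highest mean TPM or the 2 largest changes each way, the 2 genes with the highest mean TPM of each other list, and the 5 genes with the most similar pattern. Results of 2 genes of these lists are counted with their list and are not reported here by themselves. The lists were for granule cells, interneurons, astrocytes and Bergmann glia, oligodendrocytes, microglia, endothelial and mural cells, meningeal fibroblasts, choroid plexus, red cells, and deep nuclei and brainstem. Alternatives were a pseudocount of 0.1, FPKM, no TPM minimum, a minimum mean TPM of 5, quantile normalization, median-ratio scaling, the highest entry per gene, removal of the 20 highest genes, eBayes without trend, robust eBayes, a replicate block, correction for length and GC content with and without the block, and each library left out. Scaling to granule cell genes and the correction without WT mouse 1 were added after seeing the data.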

Additional observations from a re-analysis of the deposited data

How the results depend on the processing

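None of the 7 genes was called under any alternative other than the replicate block, and *Slc1a6* and *Rgs8* were lower in *Kdm3b*+/- mice under all alternatives. Of the 7 genes, 1 had an unadjusted limma p under 0.05 with no TPM minimum and 3 with the replicate block, beside 2 in the main fit. This count is not given for fits with a library left out, since 1 group then holds a single mouse. The *Kdm3b*+/- mice lay wholly below the WT mice in 1 after quantile normalization or the length and GC correction. With a library left out this held for 2 to 7 of them. It held for 2 without WT mouse 1, beside 51.8% of all tested genes, and for 7 without WT mouse 2. Fewer libraries separate more readily, and no share of all tested genes is given here for the other settings. Called genes among the other Purkinje genes numbered 1 with a pseudocount of 0.1 (*Atp2a3*), 2 with a minimum mean TPM of 5, 2 with robust eBayes (*Atp2a3* among them in both), and 0 to 4 with a library left out: 2 without WT mouse 2, 4 without *Kdm3b*+/- mouse 1 and 1 without *Kdm3b*+/- mouse 2. All of these were lower in *Kdm3b*+/- mice, while *Pvalb* was called as higher (log2 fold change 0.64) with the length and GC correction and WT mouse 1 left out. Over all genes, 38 were called with FPKM, 2 with no TPM minimum, 37 with eBayes without trend, 92 with robust eBayes, and 21 to 188 with a library left out (21 without WT mouse 1, 28 without WT mouse 2, 121 without *Kdm3b*+/- mouse 1 and 188 without *Kdm3b*+/- mouse 2).

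The direction of *Pcp2* turned with FPKM (0.0035) and with median-ratio scaling (0.012). With a library left out, log2 fold changes ran from −0.60 to 0.48 in *Pcp2*, −0.85 to 0.53 in *Pcp4*, −1.39 to 0.0084 in *Calb1*, −1.44 to 0.49 in *Ppp1r17*, −0.88 to 0.39 in *Gng13*, −1.24 to 0.22 in *Car8*, −0.92 to 0.92 in *Pvalb* and −0.071 to 0.53 in *Pcp4l1*, and each of these ranges includes 0. With the length and GC correction and WT mouse 1 left out, the turned values were 0.39 in *Pcp2*, 0.16 in *Pcp4*, 0.032 in *Calb1*, 0.36 in *Ppp1r17* and 0.14 in *Gng13*. *Pvalb*, at 0.00, turned to −0.18 with the length and GC correction, with and without the block, and to −0.0070 when scaled to granule cell genes. Beside the libraries left out, the cause of these changes was not tested.

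Mice 1 and 2 of either group have their numbers from the labels, but same-numbered mice are different animals, and their deviations from the group means correlated at 0.121 across genes (0.0229 after the length and GC correction), and the sources used here do not say whether they share a litter or batch. The main fit did not take the numbers as pairs. Within the 7 genes, mouse 1 was above mouse 2 in both genotypes, except for *Rgs8*, which was lower in mouse 1 of both. The ratio of mouse 1 to mouse 2 in WT and *Kdm3b*+/- libraries was 3.88 and 1.46 in *Ppp1r17*, 2.11 and 1.02 in *Pcp2* and 0.943 and 0.950 in *Rgs8*. The share of all tested genes with such agreement was not counted, and its cause was not tested. With the replicate block 2 of the 7 genes were called (*Calb1* and *Slc1a6*), 7 of the other Purkinje genes and 600 of all genes. With the block and the length and GC correction together these counts were 0, 0 and 59. With 2 mice per group the estimates depend on each mouse.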

Other observations

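The lists for cells outside the neuronal layers are given as values. The 10 oligodendrocyte genes summed to 17984 and 16448 TPM in WT libraries and 15192 and 18156 TPM in *Kdm3b*+/- libraries. *Mbp*, a component of myelin, was the highest (12484 and 11429 against 10521 and 12577). One gene of this list, *Mobp*, was called by limma as lower in *Kdm3b*+/- mice (log2 fold change −0.93, adjusted p = 0.0133), and in the list of astrocytes *Aqp4*, the water channel gene, was called as higher (log2 fold change 1.10, adjusted p = 0.0329). Both are named because they were the called genes of their lists. The 8 microglia genes summed to 254 and 273 in WT libraries and 270.1 and 283 in *Kdm3b*+/- libraries, with *C1qb* (98.7 and 99.2 against 109 and 106) and *C1qc* (70.2 and 69.5 against 72.1 and 72.5) the highest. The 8 endothelial and mural genes summed to 299 and 342 against 262 and 295, with *Slc2a1* (165 and 196 against 136 and 139) and *Cldn5* (70.4 and 72.8 against 71.9 and 95.1) the highest. In neither of these lists was WT mouse 1 the highest library for any gene, and 0 genes of either were called by limma. At an unadjusted limma p under 0.05, 1 microglia gene was higher in *Kdm3b*+/- mice. Of the endothelial and mural genes, 2 were lower and 1 was higher at this level, beside 1571 lower and 747 higher of the 13652 tested genes.

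The 7 genes of meningeal fibroblasts summed to 53.3 and 45.3 in WT libraries and 35.1 and 38.1 in *Kdm3b*+/- libraries, with *Dcn* (36.1 and 28.6 against 23.4 and 22.2) and *Slc6a13* (8.66 and 7.97 against 3.29 and 6.07) the highest. Choroid plexus genes were near 0, with sums of 3.69 and 1.13 against 2.37 and 1.05, *Clic6* at 2.84 and 0.817 against 0.936 and 0.353, and *Ttr* listed at 0 in WT mouse 2. The red cell genes summed to 591 and 136 against 156 and 145. Most of the sum in WT mouse 1 came from *Hbb-bs* (506 and 8.08 against 0.00768 and 0.142), a gene with a closely similar neighbouring copy, so that its value is uncertain where reads fit both, while *Hba-a1* was lowest in WT mouse 1 (73.7 and 115 against 143 and 134).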
